A study of Mus musculus with 15 samples.

Results

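The 10 genes described here encode transcription factors of the lung mesenchyme: Tbx2, Tbx3, Tbx4 and Tbx5 of the T-box family, the forkhead factor Foxf1, the basic helix-loop-helix factor Tcf21, and Irx1, Irx2, Irx3 and Irx5 of the Iroquois homeobox family. They were taken by name from a fixed list, and all 10 were found among the 48440 genes of the count table. Of these 10, 9 passed the filter on low counts that left 18167 genes to test, and Irx5 did not.

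T-box factors bind DNA through the domain that names them. Tbx2, Tbx3, Tbx4 and Tbx5 are expressed in the mesenchyme of the embryonic lung, where Tbx4 and Tbx5 act in bud outgrowth and tracheal cartilage, and Tbx2 and Tbx3 keep cells dividing. Foxf1 is a target of hedgehog signalling from the airway epithelium and is needed for lung vessels and mesenchyme, and Tcf21 marks lung fibroblast progenitors and, in the adult, lipid-rich alveolar fibroblasts. Iroquois genes lie in conserved clusters and pattern the early limb, heart, nervous system and lung.

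RNA was sequenced from primary lung fibroblasts of C57BL/6 mice with (Atm+/+) or without (Atm-/-) the DNA damage kinase gene Atm, and every culture was kept at 3% oxygen in medium with 15% serum. The groups, of 3 libraries each, were Atm+/+ at passage 2 (p2), Atm-/- at passage 2, Atm+/+ at passage 8 (p8), Atm-/- at passage 8, and Atm+/+ cells labelled passage 2 that received 10 Gy of X-rays and were taken 10 days later. The design lists 3 fibroblast strains per genotype. The age and sex of the mice, the Atm allele and the purification of the cells were not given in the sources used here. Comparisons were of genotype at each passage, of passage in each genotype, of irradiated cells with each Atm+/+ passage, and of the passage effect between genotypes. Several of them share libraries: irradiation and passage in Atm+/+ share the passage 2 libraries, and so their fold changes are not independent. Irradiated cells against Atm+/+ p8 differ in irradiation and in passage at once, and that comparison cannot tell them apart. It also shares the passage 8 libraries with passage in Atm+/+.

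Libraries held 13.6 to 39.2 M counts. Atm itself read between 0.877 and 3.10 CPM (counts per M counts, normalised by the trimmed mean of M values) in Atm+/+ libraries and between 0.873 and 2.37 CPM in Atm-/- libraries, so its level did not separate the genotypes, which rest on the labels. At equal depth 17233 genes were detected in Atm+/+ p2 replicate 3 and 15037 in Atm-/- p8 replicate 3, against at least 20127 in the other 13. This pair also held the most members of the set below 0.1 of the member's own median, 2 each, and members' results below are given with all 15 libraries and, where a call or value moved, with the 13 others. Xist was at 139.5 and 162.5 CPM in replicate 3 of the Atm-/- groups and near 0 in the rest. The 13 libraries keep the Atm-/- p2 library with high Xist and leave out the Atm-/- p8 library with high Xist. In that fit the Atm-/- groups therefore also differ in Xist between passages. Each of the 10 fibroblast markers (collagen genes, Pdgfra, Thy1, Dcn and others) was present in every group, with a sum of 11361 to 42892 CPM. In these bulk samples fewer cells of a type and less RNA per cell cannot be told apart.

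Per length, in the deposited TPM (transcript level per length, scaled to an equal sum in every library), the 10 genes covered a wide range. Tbx2, Tcf21, Foxf1 and Tbx4 had medians over the 15 libraries of 56.9, 54.9, 37.8 and 30.7 TPM. Tbx5 and Tbx3 followed at 10.2 and 7.04 TPM. The Iroquois genes had medians of 1.28 TPM for Irx3, 0.880 for Irx1, 0.169 for Irx2 and 0.0572 for Irx5. In Atm+/+ cells at passage 2 the order ran from Tbx2 through Tcf21, Tbx4, Foxf1, Tbx5, Tbx3, Irx3, Irx1 and Irx2 to Irx5, and the ranges of Tcf21, Tbx4 and Foxf1 overlapped between neighbours, as did those of the Iroquois genes. Irx1 stood at rank 8 of 10 in both passage 2 groups and after irradiation, at rank 6 in Atm+/+ p8 and at rank 3 in Atm-/- p8. At that last stage its range of 7.30 to 30.2 TPM overlapped those of Foxf1 above it and Tbx4 below it. Tcf21 moved the other way, from rank 1 in Atm-/- p2 to rank 5 in Atm-/- p8.

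**Figure D1:**
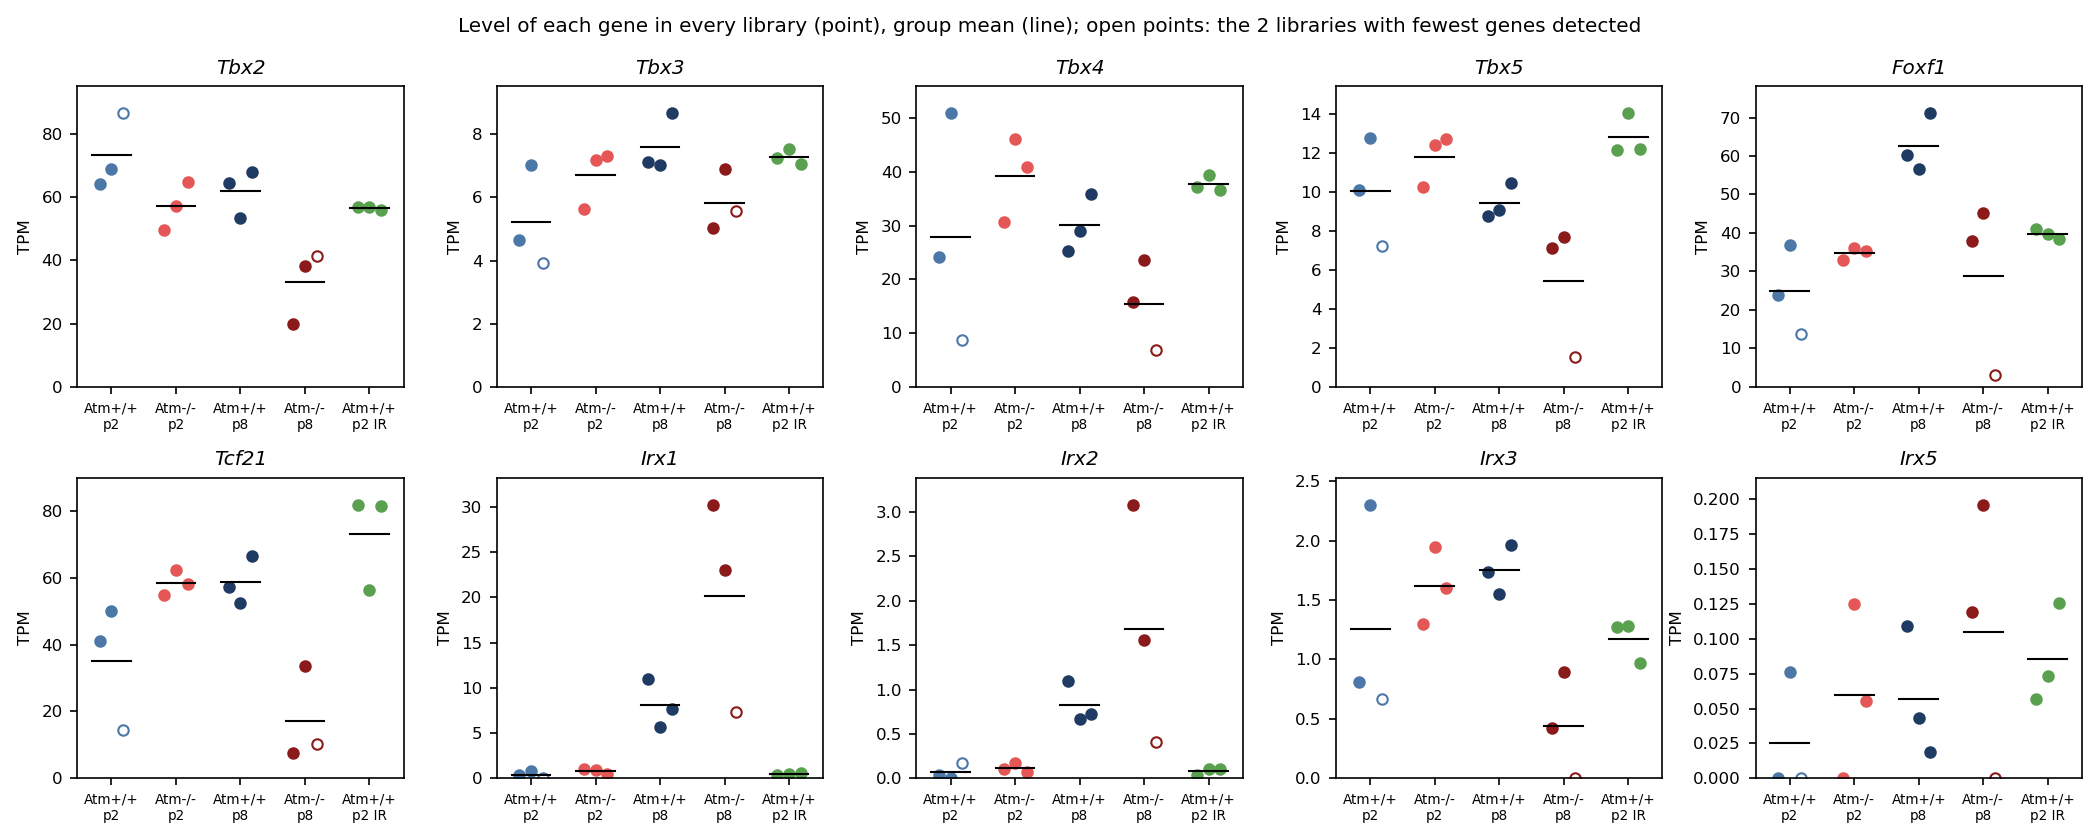
Level of each of the 10 transcription factor genes in TPM (y axis, its own range in each panel, from 0) in every library, by group (x axis; p2 and p8 are passages 2 and 8, IR is irradiated); lines are means of 3 libraries, and open points are the 2 libraries with the fewest genes detected. Irx1 and Irx2 are near 0 outside passage 8, Tcf21 is low in all 3 Atm-/- p8 libraries, and Irx5 stays under 0.2 TPM.

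Irx1 and Irx2 were close to silent in early and in irradiated cells and were read in every passage 8 library of both genotypes. Both encode Iroquois homeodomain factors from the same cluster on chromosome 13 (GRCm38, GENCODE vM21): Irx1 at chr13:71957921-71963723 on the minus strand and Irx2 at chr13:72628820-72634198 on the plus strand, 665.1 kb apart with 0 protein-coding genes between them. The sequence upstream of the Irx2 start is shown because Irx2 rose with passage. It is 250 bases (chr13:72628570-72628819, plus strand, ending at the base before the start, RefSeq on GRCm38.p6), with CpG pairs in capitals.

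Irx2: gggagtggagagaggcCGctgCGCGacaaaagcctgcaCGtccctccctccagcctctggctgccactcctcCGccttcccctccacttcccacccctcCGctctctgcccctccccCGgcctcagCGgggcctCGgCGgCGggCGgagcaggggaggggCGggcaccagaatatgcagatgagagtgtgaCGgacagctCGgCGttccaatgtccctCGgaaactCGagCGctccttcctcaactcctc

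This stretch held 19 CpG pairs, more than 80.3% of RefSeq promoter windows of the same length, and its GC content was 68.4%. It held 1 match to the E-box CANNTG (either strand), CAGATG at base 177 from its first base, as 66.2% of windows hold at least 1. No match to the T-box site AGGTGTGA, the forkhead site TGTTTAC, the GLI site GACCACCCA or the Iroquois site ACANNTGT was in this window, and 1.12%, 3.17%, 0.225% and 6.31% of windows have them.

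Irx1 read 21, 39 and 0 counts in the Atm+/+ p2 libraries (replicates 1, 2 and 3, the order used for every triplet), or 0.652, 1.07 and 0 CPM. The floor of 3 counts in that last library is 0.145 CPM. Atm-/- p2 libraries read 1.52, 1.17 and 0.627 CPM and irradiated libraries 0.516, 0.590 and 0.783 CPM. These 9 libraries all lay between 0 and 1.52 CPM, and the 3 groups overlapped.

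At passage 8 Irx1 read 562, 247 and 373 counts in Atm+/+ cells, or 16.1, 8.38 and 10.2 CPM. In Atm-/- cells it read 1651, 1094 and 195 counts, or 48.0, 35.1 and 17.1 CPM. Every passage 8 library was above every other library. In CPM every Atm-/- library at passage 8 was also above every Atm+/+ library of that passage, the lowest being the shallow replicate 3. In TPM that library, at 7.30, was below Atm+/+ p8 replicates 1 and 3, at 10.98 and 7.70, so the genotypes overlapped.

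With passage, Irx1 rose 18.9-fold in Atm+/+ cells (log2 fold change 4.24, SE 0.70, adjusted p = 0.000744 by edgeR's quasi-likelihood test with Benjamini-Hochberg adjustment over all genes tested). In Atm-/- cells it rose 30.2-fold (log2 4.92, SE 0.70, edgeR adjusted p = 0.000372). Irradiated cells stood at -4.20 on the log2 scale against Atm+/+ p8 (SE 0.69, edgeR adjusted p = 0.00174), while against passage 2 the difference was 0.04 (SE 0.70, 95% interval -1.33 to 1.41). These 3 calls for Irx1 held under each alternative run, but the Atm+/+ passage value moved with the early libraries, from 3.77 without Atm+/+ p2 replicate 3 to 5.01 without replicate 2, and was 3.76 (13.5-fold) with 13 libraries. The Atm-/- value was 5.26 (38.2-fold) with 13. Between genotypes at passage 8 the log2 difference was 1.53 (SE 0.60, edgeR adjusted p = 0.114) with 15 libraries and 1.86 (SE 0.29, edgeR adjusted p = 0.000995) with 13. The genotype difference also passed without Atm+/+ p2 replicate 3 (adjusted p = 0.0212) and without Atm-/- p8 replicate 3 (adjusted p = 0.0452) alone. The passage effect itself was not shown to differ between genotypes (difference 0.68, SE 0.90, edgeR adjusted p = 0.623; with 13 libraries 1.496, SE 0.52, adjusted p = 0.0702).

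Irx2 followed at a lower level. It read 2, 0 and 8 counts in Atm+/+ p2, 6, 10 and 4 in Atm-/- p2, and 2, 6 and 5 in irradiated cells, so these 9 libraries held 0 to 10 counts each, close to the floor of 3 counts. At passage 8 it read 62, 32 and 39 counts in Atm+/+ cells (1.78, 1.09 and 1.07 CPM) and 186, 82 and 12 in Atm-/- cells (5.41, 2.63 and 1.05 CPM). The passage 8 groups did not overlap the early groups, and they overlapped each other through the shallow replicate 3.

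Irx2 rose with passage by 3.30 on the log2 scale in Atm+/+ cells (SE 0.94, edgeR adjusted p = 0.0222) and by 4.09 in Atm-/- cells (SE 0.90, edgeR adjusted p = 0.00772). Irradiated cells differed from Atm+/+ p8 by -3.52 (SE 0.91, edgeR adjusted p = 0.0323). These sizes rest on a handful of reads in the early libraries: without Atm+/+ p2 replicate 3 the Atm+/+ passage value was 5.34, and without replicate 2 it was 2.67. The Atm+/+ call was lost without Atm+/+ p2 replicate 1 (adjusted p = 0.0867), passage 8 replicate 1 (0.0704) or passage 8 replicate 3 (0.0509), and the Atm-/- call without Atm-/- p2 replicate 3 (0.0505). The call of irradiated cells against Atm+/+ p8 was lost without any single irradiated library (adjusted p of 0.172, 0.121 and 0.114), any Atm-/- p2 library (0.0558, 0.0532 and 0.0524) or any Atm+/+ p8 library (0.118, 0.0732 and 0.0672). It was also lost with the replicate number as a block (edgeR adjusted p = 0.0650) and by limma on log2(TPM + 1) (-0.75, limma adjusted p = 0.153). With 13 libraries all 3 calls passed, and Irx2 was also higher in Atm-/- than in Atm+/+ cells at passage 8 (log2 1.64, SE 0.42, edgeR adjusted p = 0.0128). With 15 libraries that genotype difference was 1.23 (SE 0.78, edgeR adjusted p = 0.316).

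Over the 15 libraries the log2 CPM of Irx1 and Irx2 had a Pearson correlation of 0.80, and over 13 of 0.96, a description in which library depth and group are shared. Upstream of Irx2 on the other strand begins Gm20554, a noncoding gene with 6 reads in all 15 libraries together.

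Irx3 and Irx5, from the second mouse Iroquois cluster on chromosome 8, did not share this pattern. Irx3 (chr8:91798525-91802067, minus strand) read 1.55, 3.56 and 1.60 CPM in Atm+/+ p2, 2.22, 3.00 and 2.56 in Atm-/- p2, 2.96, 2.65 and 3.02 in Atm+/+ p8, and 1.86, 1.77 and 1.40 after irradiation. Atm-/- p8 libraries read 0.786, 1.57 and 0 CPM. That group lay below both Atm+/+ p8 and Atm-/- p2 without overlap.

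The differences for Irx3 were -1.76 on the log2 scale between genotypes at passage 8 (SE 0.68, edgeR adjusted p = 0.109) and -1.62 with passage in Atm-/- cells (SE 0.68, edgeR adjusted p = 0.137). Neither passed in the main edgeR fit of 15 libraries. Both passed on the same libraries by DESeq2 (-1.77, DESeq2 adjusted p = 0.0106, and -1.63, adjusted p = 0.0177). Both also passed by limma on log2(TPM + 1) (-0.98, limma adjusted p = 0.0399, and -0.90, adjusted p = 0.0385). Medians over all genes by limma were -0.29 and -0.32. No other fit of all 15 libraries gave either call. Without Atm-/- p8 replicate 2 the edgeR values were -2.62 (adjusted p = 0.0347) and -2.45 (adjusted p = 0.0430), and with 13 libraries -1.28 (SE 0.36, adjusted p = 0.0207) and -1.12 (SE 0.36, adjusted p = 0.0330). Irx3os, an antisense gene (chr8:91800415-91807539) that overlaps Irx3, was lower in Atm-/- than in Atm+/+ cells at passage 8 (log2 -2.49, SE 0.70, edgeR adjusted p = 0.0426), from a mean of 0.750 CPM to 0.111 CPM, and by -2.12 with 13 libraries (SE 0.62, adjusted p = 0.0250). Gm10824 overlaps Tcf21 on the other strand and was not analysed here, and Crnde, which begins upstream of Irx5, had group means of 0.119 to 1.43 CPM and no call. Reads of Irx3 and Irx3os cannot be told apart where the genes overlap, since the strand setting of the counting is not given in the sources used here. Irx5 (chr8:92357625-92376286, plus strand), 555.6 kb from Irx3, read 0 to 10 counts in each library, and any change in it was not detectable at this depth.

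Tcf21 was lowest in Atm-/- cells at passage 8. The gene (chr10:22817281-22820174, minus strand) encodes a basic helix-loop-helix factor, a class that binds E-boxes with its partners. Its upstream sequence is shown because it was called in the opposite direction from Irx2 within the same Atm-/- cells. It is 219 bases (chr10:22820175-22820393, minus strand, read 5′ to 3′ toward the annotated start, RefSeq on GRCm38.p6), with CpG pairs in capitals.

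Tcf21: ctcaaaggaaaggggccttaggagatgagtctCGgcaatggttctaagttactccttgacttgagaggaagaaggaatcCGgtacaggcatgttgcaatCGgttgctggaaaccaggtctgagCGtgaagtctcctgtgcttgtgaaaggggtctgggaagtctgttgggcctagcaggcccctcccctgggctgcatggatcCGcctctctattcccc

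This stretch held 5 CpG pairs, more than 49% of RefSeq windows of that length, with a GC content of 54.8%. It had no E-box, which 62% of windows hold, and none of the other 4 motifs searched above, which 0.219% to 5.77% hold.

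Tcf21 read 51.1, 50.6 and 22.7 CPM in Atm+/+ p2 and 61.1, 62.3 and 60.5 CPM in Atm-/- p2. At passage 8 it read 63.4, 58.2 and 66.7 CPM in Atm+/+ cells and 9.22, 38.4 and 17.97 CPM in Atm-/- cells, and irradiated cells read 77.7, 50.9 and 76.1 CPM. The Atm-/- p8 libraries were below every library of the other groups except Atm+/+ p2 replicate 3, which Atm-/- replicate 2 exceeded. Within that group the values spanned a wide range, and replicate 1, a library of ordinary depth, was the lowest.

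Between genotypes at passage 8 Tcf21 was lower in Atm-/- cells by a log2 value of -1.52 (SE 0.41, edgeR adjusted p = 0.0364), and with passage in Atm-/- cells it changed by -1.48 (SE 0.41, edgeR adjusted p = 0.0287). With 13 libraries the values were -1.39 (SE 0.43, edgeR adjusted p = 0.0368) and -1.35 (SE 0.42, adjusted p = 0.0375). The genotype call was lost without any single library of Atm+/+ p8 (adjusted p of 0.0959, 0.0809 and 0.116) or Atm-/- p2 (0.0547, 0.0557 and 0.0553), without Atm-/- p8 replicate 1 (0.0699) or 3 (0.0841), and without irradiated replicate 1 (0.0544) or 3 (0.0539). The passage call was lost without any single Atm-/- p2 library (0.0726, 0.0843 and 0.0788) or Atm-/- p8 replicate 1 (0.0664) or 3 (0.0768). Without Atm-/- p8 replicate 2 both values were larger, -2.23 (adjusted p = 0.00208) and -2.17 (adjusted p = 0.00164). A fit of only the groups compared lost both calls (-1.51, adjusted p = 0.183, and -1.49, adjusted p = 0.163), and without a filter on low counts the genotype call was lost (adjusted p = 0.0623). In Atm+/+ cells the passage difference was 0.60 (SE 0.40, edgeR adjusted p = 0.289). The difference between the passage effects was -2.08 (SE 0.57, edgeR adjusted p = 0.0536) in the main fit of 15 libraries. It did not pass there or with 13 libraries (-1.68, SE 0.59, edgeR adjusted p = 0.0773). On all 15 libraries it passed by DESeq2 (-2.07, DESeq2 adjusted p = 0.00707) and in edgeR under a strict filter (-2.04, edgeR adjusted p = 0.0457). It also passed by limma on log2(TPM + 1) (-2.87, limma adjusted p = 0.0387), beside a median of -0.50 over all genes. In edgeR it passed without Atm+/+ p2 replicate 2 (-2.26, adjusted p = 0.0233) and without Atm-/- p8 replicate 2 (-2.80, adjusted p = 0.00486).

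Fibroblast markers differed in the same comparison. At passage 8, 9 of 10 were lower in Atm-/- than in Atm+/+ cells and Vim was higher, and their summed level was 11361 to 16775 CPM against 36530 to 42892 CPM. Of all genes tested, 4.29% were called lower there. Pdgfra, the receptor that marks lung fibroblasts, differed by -1.67 on the log2 scale and Col1a1 by -2.09. With passage in Atm-/- cells 7 of the 10 fibroblast markers were lower, beside 8.25% of all genes. In the difference of passage effects 5 of the 10 were lower, beside 4.43% of all genes called in either direction. The part of these changes in the results for Tcf21 and Irx3 was not tested.

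Foxf1 was highest in Atm+/+ cells at passage 8. The gene (chr8:121084386-121088144, plus strand) read 40.0, 50.1 and 29.2 CPM in Atm+/+ p2, 49.3, 48.9 and 49.7 CPM in Atm-/- p2, and 52.6, 48.4 and 48.4 CPM after irradiation. Atm+/+ p8 libraries read 90.0, 85.0 and 96.2 CPM, above all other libraries. Atm-/- p8 libraries read 61.2, 70.2 and 7.45 CPM, so that the first 2 lay above every passage 2 library and replicate 3 was the lowest of all 15.

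With 15 libraries no Foxf1 comparison passed: the log2 differences were 1.18 with passage in Atm+/+ cells (SE 0.50, edgeR adjusted p = 0.102), -0.08 with passage in Atm-/- cells (SE 0.49, adjusted p = 0.930) and -0.96 between genotypes at passage 8 (SE 0.50, adjusted p = 0.222). With 13 libraries Foxf1 rose with passage by 1.03 in Atm+/+ cells (SE 0.10, edgeR adjusted p = 4.88e-06) and by 0.44 in Atm-/- cells (SE 0.10, adjusted p = 0.00516). In that fit it was lower in Atm-/- than in Atm+/+ cells at passage 8 (-0.44, SE 0.10, adjusted p = 0.00748), and the passage effects differed between genotypes (-0.59, SE 0.14, adjusted p = 0.0194). Irradiated cells were lower than Atm+/+ p8 by -0.84 in the same 13 libraries (SE 0.09, edgeR adjusted p = 2.27e-05). Leaving out Atm-/- p8 replicate 3 alone gave a passage call in Atm+/+ cells (1.22, adjusted p = 7.44e-05) and the call of irradiated cells against Atm+/+ p8 (-0.83, adjusted p = 0.00282). The other 3 calls came with both libraries left out: without that one alone the adjusted p was 0.113 for passage in Atm-/- cells, 0.123 between genotypes at passage 8 and 0.0608 for the difference of passage effects. A fit of only the groups compared, which does not hold that library, gave both as well (1.18, adjusted p = 0.0115, and -0.83, adjusted p = 6.14e-06).

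Fendrr, a long noncoding RNA gene (chr8:121054882-121083110, minus strand) that begins just upstream of Foxf1 on the other strand and is needed for heart and body wall development, had a different order of levels. Fendrr read 62.1, 43.0 and 59.4 CPM in Atm+/+ p2, 44.2, 31.9 and 31.5 CPM in Atm-/- p2 and 46.2, 43.9 and 40.1 CPM in Atm+/+ p8. It read 26.3, 31.6 and 15.3 CPM in Atm-/- p8 and 23.8, 22.1 and 28.2 CPM after irradiation. Irradiated cells were below both Atm+/+ groups without overlap. Fendrr fell after irradiation against passage 2 by -1.15 in log2 terms (SE 0.24, edgeR adjusted p = 0.00435) and was lower in Atm-/- than Atm+/+ cells at passage 8 by -0.82 (SE 0.24, edgeR adjusted p = 0.0459). With 13 libraries these were -1.04 (SE 0.18, edgeR adjusted p = 0.000507) and -0.57 (SE 0.18, adjusted p = 0.0379). For Foxf1 the difference after irradiation against passage 2 was 0.32 (SE 0.49, edgeR adjusted p = 0.647), or 0.19 with 13 libraries (SE 0.10, adjusted p = 0.138). Against Atm+/+ p8 both genes were lower in irradiated cells. Fendrr stood at -0.81 (SE 0.24, edgeR adjusted p = 0.0590), or -0.79 with 13 libraries (SE 0.16, adjusted p = 0.00294). Foxf1 stood at -0.86 with 15 libraries (SE 0.50, edgeR adjusted p = 0.439), with its 13-library value given above.

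**Figure D2:**
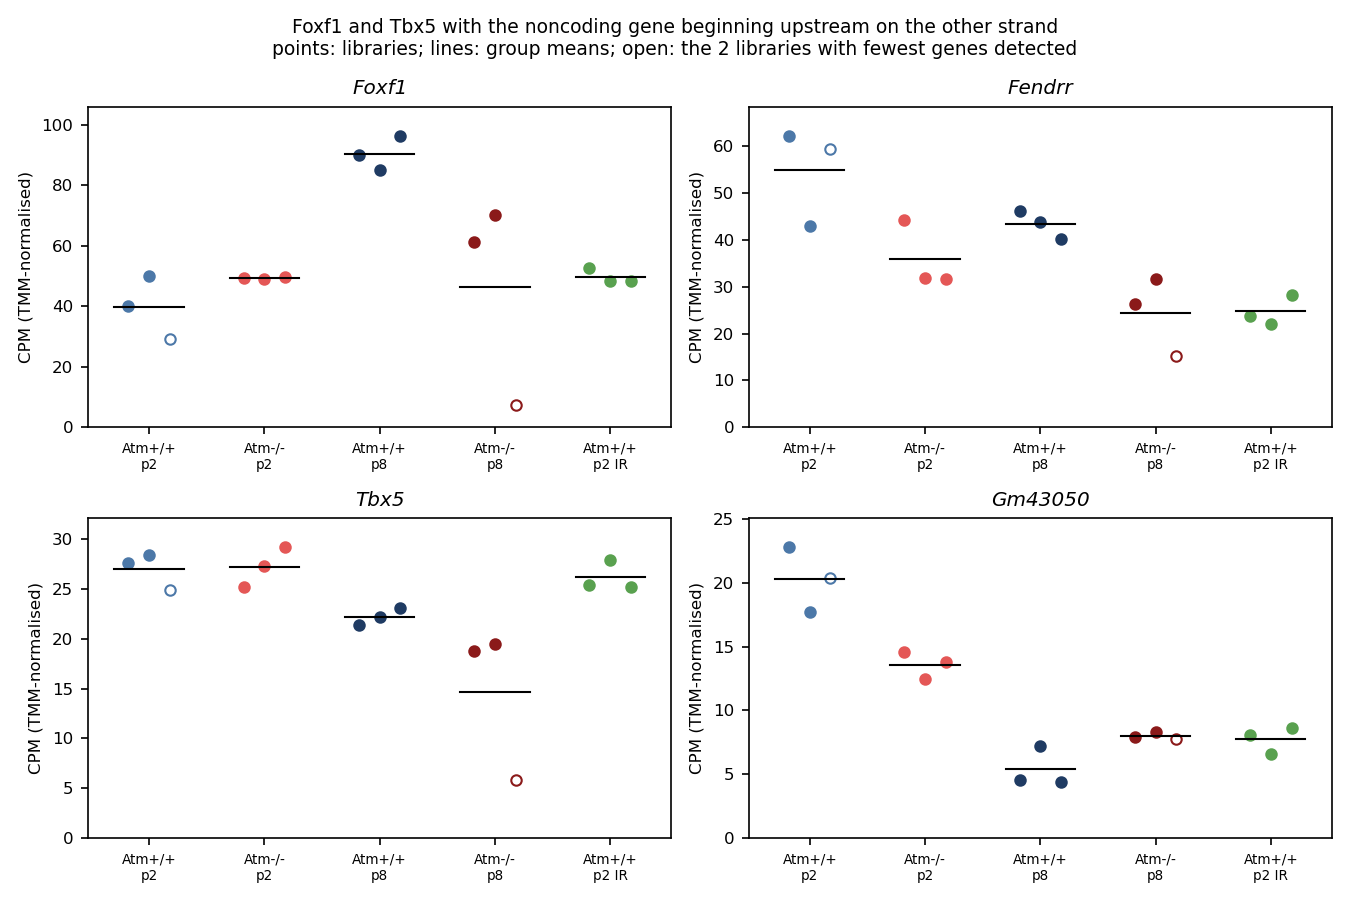
Foxf1 and Tbx5 (left) and the noncoding genes Fendrr and Gm43050 that begin upstream of them on the other strand (right), in TMM-normalised CPM (y axis, from 0) by library and group; lines are means of 3 libraries and open points the 2 libraries with the fewest genes detected. Foxf1 is highest in Atm+/+ p8 while Fendrr is highest in Atm+/+ p2, and Gm43050 falls from 20.3 CPM at passage 2 to 5.40 CPM at passage 8 in Atm+/+ cells with Tbx5 between 21.3 and 28.3 CPM.

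The T-box genes lie in a pair of clusters. Tbx2 (chr11:85832551-85841948) and Tbx4 (chr11:85886422-85916097), both on the plus strand, are 44.5 kb apart with 1 protein-coding gene between them. Tbx3 (chr5:119670669-119684724) and Tbx5 (chr5:119832668-119885219), also on the plus strand, are 147.9 kb apart with 0 between them. In the main edgeR fit of 15 libraries no T-box comparison passed the test in any of the 7 contrasts.

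Tbx2, a repressor that holds back cell cycle inhibitors, had the highest level of the 4. It read 162, 141 and 274 CPM in Atm+/+ p2, 112, 116 and 137 CPM in Atm-/- p2, 145, 120 and 138 CPM in Atm+/+ p8, and 109.6, 104.1 and 105.9 CPM after irradiation. Atm-/- p8 libraries read 48.2, 89.4 and 147.7 CPM. The spread was widest in Atm+/+ p2 and Atm-/- p8, and in both the highest value came from replicate 3, the library with few genes detected.

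In CPM irradiated cells lay below both Atm+/+ groups without overlap for Tbx2, with log2 differences of -0.85 against passage 2 (SE 0.32, edgeR adjusted p = 0.0621) and -0.33 against passage 8 (SE 0.32, edgeR adjusted p = 0.732). In TPM they overlapped Atm+/+ p8 (55.8 to 56.9 against 53.5 to 67.9). The second difference passed in a fit of only the groups compared (-0.305, SE 0.08, edgeR adjusted p = 0.0107). The first passed without Atm+/+ p2 replicate 2 (-0.97, adjusted p = 0.0396), Atm-/- p8 replicate 1 (-0.79, adjusted p = 0.0268) or Atm-/- p8 replicate 3 (-0.79, adjusted p = 0.0199). It was -0.45 (adjusted p = 0.330) without Atm+/+ p2 replicate 3. In Atm-/- cells at passage 8 Tbx2 differed from Atm+/+ cells by -0.50 (SE 0.32, edgeR adjusted p = 0.317). In TPM Atm-/- p8 lay below Atm+/+ p8 without overlap (19.9 to 41.3 against 53.5 to 67.9). The difference passed by limma on log2(TPM + 1) (-0.94, limma adjusted p = 0.0293), beside a median of -0.29 over all genes. It also passed without Atm-/- p8 replicate 3 (-0.96, edgeR adjusted p = 0.0478). Without Atm-/- p8 replicate 1 it was -0.185 (edgeR adjusted p = 0.641). With 13 libraries Tbx2 was lower in the same comparison by -0.95 (SE 0.20, edgeR adjusted p = 0.00479) and fell with passage in Atm-/- cells by -0.80 (SE 0.19, edgeR adjusted p = 0.00818). That passage difference was -0.36 with 15 libraries (SE 0.32, edgeR adjusted p = 0.500). It passed by limma on log2(TPM + 1) (-0.83, limma adjusted p = 0.0331) and was -0.018 without Atm-/- p8 replicate 1 (edgeR adjusted p = 0.967).

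Tbx4, which acts with Tbx5 in lung branching, read 53.2, 90.4 and 24.1 CPM in Atm+/+ p2, 60.2, 81.3 and 75.2 CPM in Atm-/- p2, and 62.1, 62.8 and 60.5 CPM after irradiation. At passage 8 it read 49.3, 56.8 and 63.3 CPM in Atm+/+ cells and 33.2, 47.9 and 21.2 CPM in Atm-/- cells. The Atm-/- p8 group lay below both Atm+/+ p8 and Atm-/- p2 without overlap. With passage in Atm-/- cells the difference was -1.08 (SE 0.37, edgeR adjusted p = 0.0737), and -0.81 with 13 libraries (SE 0.21, edgeR adjusted p = 0.0138). It also passed without Atm+/+ p2 replicate 2 (adjusted p = 0.0313), Atm+/+ p2 replicate 3 (0.0139) or Atm-/- p8 replicate 2 (0.0361), by DESeq2 (0.0227), and in the fit blocked on replicate (-1.137, edgeR adjusted p = 0.0437). The genotype difference at passage 8 was -0.72 (SE 0.37, edgeR adjusted p = 0.213).

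Tbx5, best known for heart and forelimb development, read 27.6, 28.3 and 24.9 CPM in Atm+/+ p2, 25.1, 27.3 and 29.2 CPM in Atm-/- p2 and 25.4, 27.9 and 25.2 CPM after irradiation. It read 21.3, 22.1 and 23.0 CPM in Atm+/+ p8 and 18.7, 19.5 and 5.87 CPM in Atm-/- p8. Both passage 8 groups lay below their passage 2 groups without overlap, with Atm-/- p8 replicate 3 far below its partners. The passage differences were -0.28 in Atm+/+ cells (SE 0.30, edgeR adjusted p = 0.505) and -0.87 in Atm-/- cells (SE 0.30, edgeR adjusted p = 0.0744). With 13 libraries they were -0.31 (SE 0.10, edgeR adjusted p = 0.0187) and -0.49 (SE 0.10, adjusted p = 0.00212). The Atm-/- difference also passed without Atm-/- p8 replicate 2 (-1.10, adjusted p = 0.0389) or replicate 3 (-0.49, adjusted p = 0.0117) alone.

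Gm43050, a noncoding gene (chr5:119828448-119831920, minus strand) that begins upstream of Tbx5, passed in 4 of 7 comparisons. It read 22.8, 17.7 and 20.4 CPM in Atm+/+ p2 and 14.5, 12.4 and 13.8 CPM in Atm-/- p2. It read 4.59, 7.19 and 4.42 CPM in Atm+/+ p8, 7.89, 8.35 and 7.80 CPM in Atm-/- p8 and 8.11, 6.63 and 8.64 CPM after irradiation. It fell with passage by -1.91 in Atm+/+ cells (SE 0.22, edgeR adjusted p = 3.38e-05) and by -0.76 in Atm-/- cells (SE 0.21, edgeR adjusted p = 0.0278), a difference between genotypes that passed (1.15, edgeR adjusted p = 0.0471). After irradiation it was -1.38 against passage 2 (edgeR adjusted p = 0.000696). With 13 libraries these 4 calls of Gm43050 passed, at -1.89, -0.72, 1.17 and -1.33. It was then also higher in Atm-/- than in Atm+/+ cells at passage 8 (0.61, SE 0.21, edgeR adjusted p = 0.0445) and in irradiated cells than in Atm+/+ p8 (0.56, SE 0.19, edgeR adjusted p = 0.0419).

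Tbx3, a repressor close in sequence to Tbx2, had the narrowest range. It read 16.2, 19.7 and 17.1 CPM in Atm+/+ p2, 17.4, 20.03 and 21.2 CPM in Atm-/- p2, 22.0, 21.7 and 24.2 CPM in Atm+/+ p8, 16.7, 22.1 and 27.4 CPM in Atm-/- p8 and 19.2, 19.0 and 18.4 CPM after irradiation. Atm+/+ p8 lay above Atm+/+ p2 without overlap, a log2 difference of 0.36 (SE 0.17, edgeR adjusted p = 0.143). With 13 libraries this passed (0.36, SE 0.13, edgeR adjusted p = 0.0458), as it did without Atm-/- p8 replicate 3 alone (0.39, adjusted p = 0.0303). Tbx3os1, which overlaps the start of Tbx3 on the other strand, had group means of 0.600 to 2.07 CPM.

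Across the members, the genotype comparison at passage 2 called 0 of 9 tested by edgeR, where 0.969% of all genes were called. DESeq2 also called 0, and 0 had an unadjusted p under 0.05. At passage 8 it called 1, Tcf21, which was lower, beside 9.32% of all genes in either direction and 4.29% lower. Passage in Atm+/+ cells called 2, Irx1 and Irx2, both higher, beside 23.3% of all genes and 9.8% higher. Passage in Atm-/- cells called 3 beside 13% of all genes, with Irx1 and Irx2 higher (4.76% of genes were) and Tcf21 lower (8.25% were).

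Irradiation against passage 2 called 0 of the 9 by edgeR, where 27.5% of all genes were called. There Tbx2 alone had an unadjusted p under 0.05, and DESeq2 called 1, the same gene. Irradiation against Atm+/+ p8 called 2, Irx1 and Irx2, both lower, beside 6.89% of all genes and 2.59% lower. The difference of passage effects called 0 by edgeR, beside 4.43% of all genes, with Tcf21 alone at an unadjusted p under 0.05, and DESeq2 called 2, Tcf21 and Irx3. The counts by DESeq2 stand without its share of all genes called.

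With 13 libraries the genotype comparisons called 0 of 9 at passage 2 (5.35% of all genes) and 6 at passage 8 (25%), 2 of them higher (13.3%) and 4 lower (11.8%). Passage called 5 in Atm+/+ cells (40.1%), 4 higher (19.8%) and Tbx5 lower (20.3%), and 8 in Atm-/- cells (27.2%), 3 higher (12.8%) and 5 lower (14.4%). Irradiation called 0 against passage 2 (46.3%) and 4 against passage 8 (25.5%), Tbx5 higher (13.2%) and 3 lower (12.3%), and the difference of passage effects called Foxf1 (13.8%), lower (7.28%).

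In CPM, groups did not overlap for 2 of the 10 members between genotypes at passage 2 (25.8% of genes tested), Tcf21 higher (13.7%) and Tbx2 lower (12.1%). At passage 8 it was 6 (39.8%), with Irx1 higher (16.8%) and 5 lower in Atm-/- cells (23%). In TPM the Irx1 groups overlapped there, while Tbx2 and Tbx3 were also lower without overlap. The share of all genes without overlap in TPM was not computed, so this is no result about Tbx2 or Tbx3. By limma on log2(TPM + 1) the median over all genes was -0.29 in that comparison. With passage in Atm+/+ cells the count in CPM was 6 (47.5%), 5 higher (24.9%) and Tbx5 lower (22.6%), and in Atm-/- cells also 6 (37%), 2 higher (14.5%) and 4 lower (22.5%). After irradiation it was 1 against passage 2 (55%), Tbx2, lower (27.7%), and 7 against passage 8 (48.4%), Tbx5 higher (22.8%) and 6 lower (25.6%). Shares near the background are no result about these genes. The shares of all genes called with 15 libraries are also the background for counts of genes called within the marker and gene lists. The median log2 difference over the 9 tested was 0.36 with passage in Atm+/+ cells and -0.36 in Atm-/- cells, beside 0.00 and -0.08 over all genes tested. For the genotypes at passage 8 it was -0.58 beside -0.08.

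**Figure D3:**
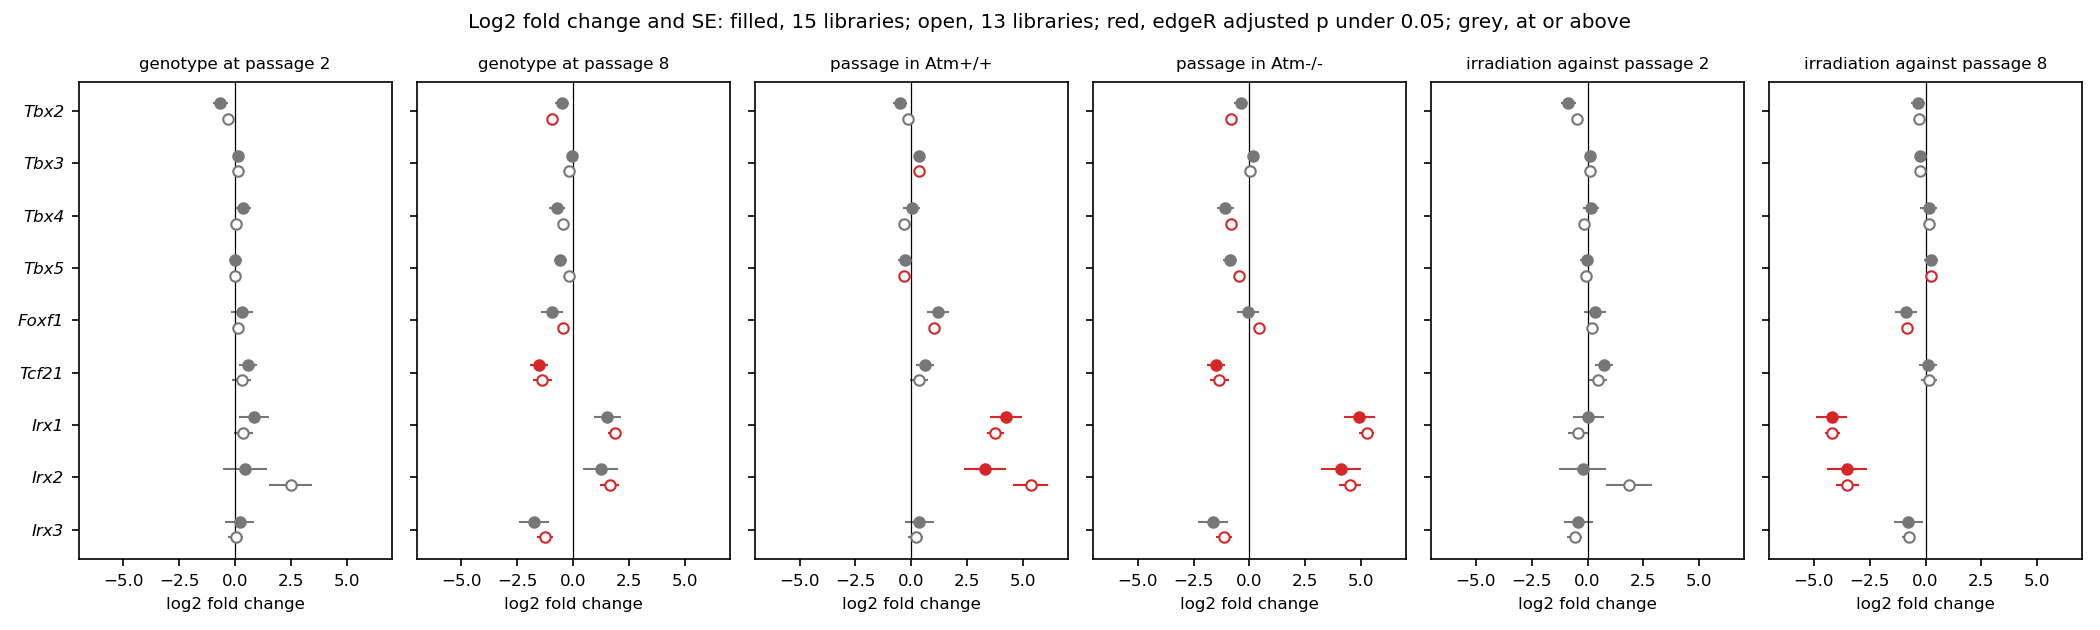
Log2 fold change with its SE (x axis) of the 9 tested members (rows) in 6 comparisons (panels), with 15 libraries (filled) and 13 libraries (open); red marks an edgeR adjusted p under 0.05 and grey the rest. With 15 libraries Irx1 and Irx2 stand at 3.30 to 4.92 with passage and at -4.20 and -3.52 for irradiation against passage 8, and SEs of Foxf1 shrink from 0.49 to 0.10 with passage in Atm-/- cells when 13 libraries are used.

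Markers of other cell types differed with passage, as Irx1 and Irx2 did, and several lists also differed where neither of these genes passed. The summed level of 13 macrophage markers was 2172 to 3851 CPM in Atm+/+ p2, 973 to 1595 CPM in Atm-/- p2 and 1344 to 2447 CPM after irradiation, against 64.7 to 100.6 CPM and 39.1 to 57.8 CPM at passage 8, and all 13 fell with passage in both genotypes. The 12 endothelial markers fell likewise, from 657 to 1212 CPM in Atm+/+ p2 to 9.25 to 11.7 CPM in Atm+/+ p8 and from 471 to 728 CPM in Atm-/- p2 to 16.7 to 59.1 CPM in Atm-/- p8. They were at 118 to 341 CPM after irradiation, and 4 of the 12 were higher in Atm-/- than in Atm+/+ cells at passage 8. Mesothelial markers, 9 in number, moved upward: 7.67 to 9.09 CPM in Atm+/+ p2, 13.8 to 15.6 CPM in Atm+/+ p8, 30.2 to 107.7 CPM in Atm-/- p8 and 6.25 to 6.82 CPM after irradiation.

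Within the mesothelial list 4 of 7 tested rose with passage in Atm+/+ cells and 5 of 7 in Atm-/- cells, and 4 of 7 were higher in Atm-/- cells at passage 8. Msln had group means of 0.393, 1.84 and 22.1 CPM in Atm+/+ p2, Atm+/+ p8 and Atm-/- p8, while Wt1 had 0.546, 1.15 and 0.318 CPM and Lrrn4 and Gpm6a were at 0 in Atm-/- p8. Of 9 pericyte markers 6 fell with passage in each genotype. Lung epithelial markers summed to at most 30.2 CPM in any library, with Epcam under 0.2 CPM throughout. Smooth muscle markers, which myofibroblasts share, summed to 5110 to 6736 CPM in Atm+/+ p2, 9451 to 11739 CPM in Atm-/- p2, 14996 to 16180 CPM in Atm+/+ p8, 7738 to 9092 CPM in Atm-/- p8 and 20278 to 23419 CPM after irradiation. Irradiation against passage 2, where no member was called, gave 9 of 12 endothelial and 6 of 7 tested epithelial markers lower. It gave 7 of 8 smooth muscle markers higher, beside 27.5% of all genes called in either direction. Between genotypes at passage 2, 5 of 8 smooth muscle markers were higher, beside 0.969% of all genes. Of the 7 epithelial markers tested, 6 fell with passage in Atm+/+ cells and 2 in Atm-/- cells. The part of any of these cell types in the results for the members was not tested.

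**Figure D4:**
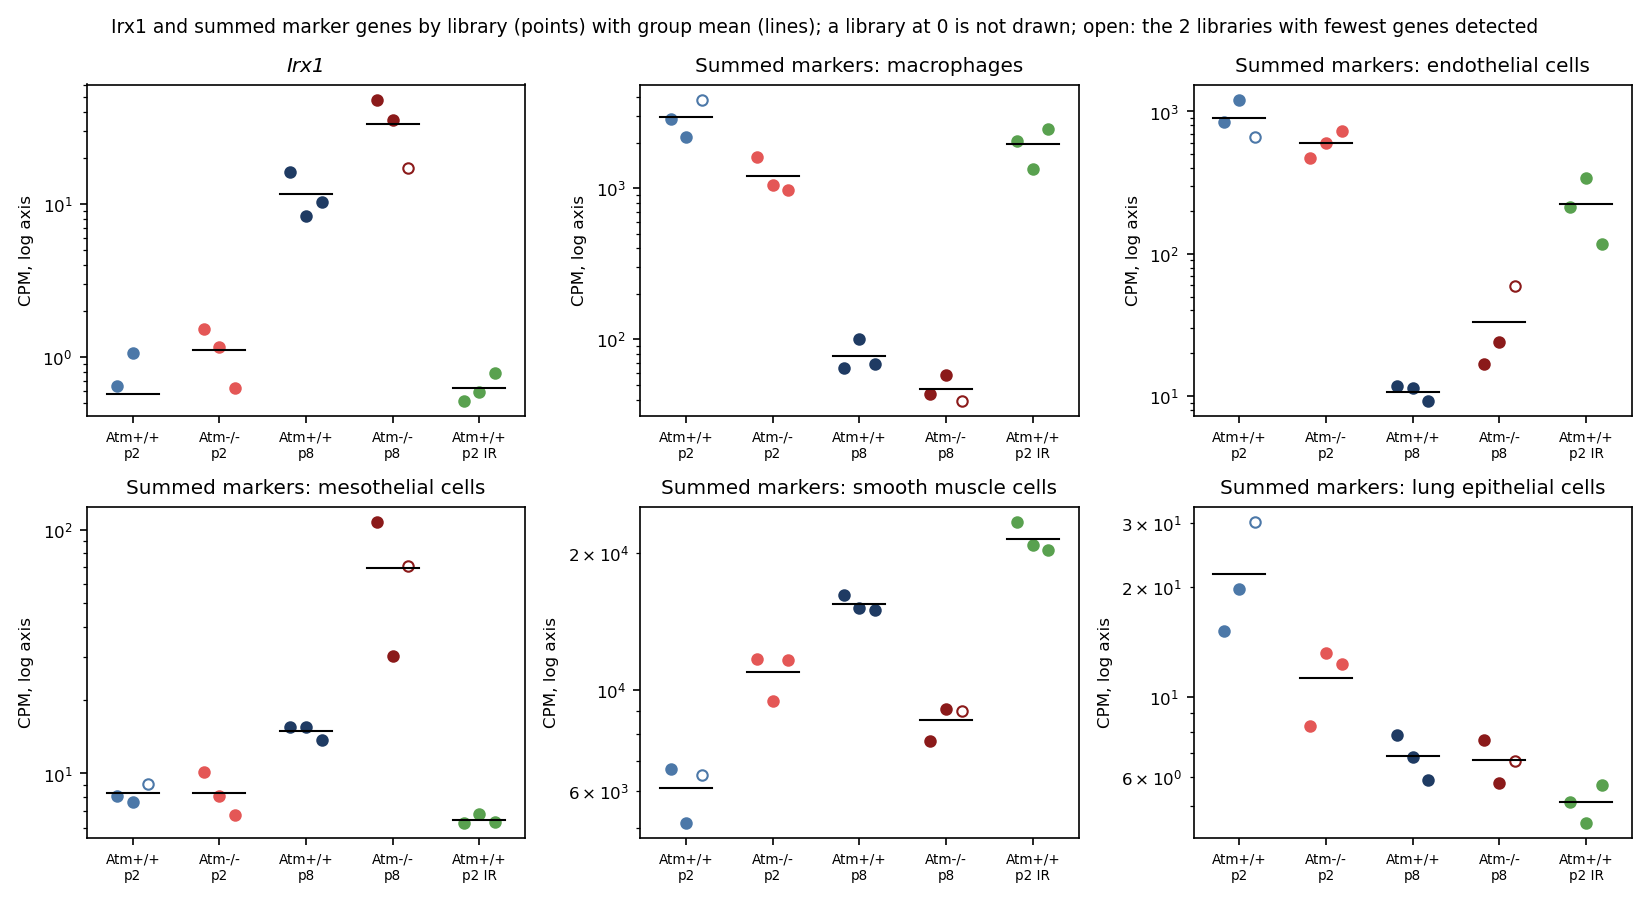
Irx1 and the summed marker genes of 5 other cell types in CPM (y axes, logarithmic) by library and group; lines are group means, open points the 2 libraries with the fewest genes detected, and the Atm+/+ p2 library with Irx1 at 0 is not drawn. Irx1 and the mesothelial sum are highest in Atm-/- p8, and macrophage and endothelial sums are lowest in the passage 8 groups.

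Close copies of the members were read at their levels. Foxf2, the paralog of Foxf1, had means of 21.2 ± 12.8 CPM (SD, n = 3) in Atm+/+ p2, 35.3 ± 2.72 in Atm-/- p2, 26.1 ± 3.05 in Atm+/+ p8, 12.0 ± 8.86 in Atm-/- p8 and 36.8 ± 7.15 after irradiation, and passed in no comparison. Tbx18, a T-box factor of smooth muscle precursors, rose with passage by 2.33 in Atm+/+ cells (edgeR adjusted p = 4.56e-06) and by 0.77 in Atm-/- cells (edgeR adjusted p = 0.0186), which in CPM was from 5.43 ± 1.12 to 27.2 ± 1.68 and from 7.50 ± 0.871 to 12.8 ± 2.38 (SD, n = 3). The rise was smaller in Atm-/- cells (difference -1.56, edgeR adjusted p = 0.0144). Tbx15, a T-box factor of skin and muscle, rose by 2.79 and 2.53 from group means under 0.7 CPM (edgeR adjusted p = 0.00463 and 0.00983) and stood at -2.65 in irradiated cells against Atm+/+ p8 (adjusted p = 0.0124). Irx4 and Irx6 stayed under 0.2 CPM in every library. Over the T-box and Iroquois genes outside the set, 7 of 17 were tested, and with passage 2 rose and Tbx1 fell in Atm+/+ cells and 2 rose in Atm-/- cells.

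The hedgehog pathway, which acts upstream of Foxf1 in the lung, was read from 15 genes, of which 13 were tested. The ligand receptor Ptch1 and the transcription factor Gli1, both known targets of the pathway, passed in no comparison: Ptch1 had means of 5.36 to 7.33 CPM, and Gli1 lay under 0.4 CPM in every library. Changes were in the co-receptors and in Gli2 and Gli3. At passage 8, 4 were lower in Atm-/- than in Atm+/+ cells, among them Gas1 (log2 -1.77) and Cdon (-0.97), both hedgehog co-receptors, and Gli2 (-1.25). With passage, 2 fell in Atm+/+ cells, Gas1 (-1.56) and Gli3 (-0.68), and 4 fell in Atm-/- cells, with Gas1 at -2.58 and Gli2 at -1.48. After irradiation 3 were lower than at passage 2, Gas1 by -3.22, from a mean of 119.7 to 12.8 CPM, beside 27.5% of all genes called in either direction.

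Signals of the lung mesenchyme, some of them downstream of Tbx4 and Tbx5, were read from 22 genes with 20 tested. Fgf10, the growth factor that drives branching and depends on Tbx4 and Tbx5 in the embryo, had group means of 163.7 to 238.1 CPM and passed in no comparison. With passage in Atm+/+ cells 7 rose and 2 fell, led by Rspo3 (1.44), Wnt2 (-4.49), Vegfa (1.69) and Cxcl12 (1.66). With passage in Atm-/- cells 1 rose and 2 fell: Rspo3 (0.97), Tgfbi (-3.21) and Wnt2 (-3.56). Wnt2, a signal of the early lung mesenchyme to its epithelium, fell in both genotypes. At passage 8, 1 was higher and 8 were lower in Atm-/- cells, led by Cxcl12 (-1.81) and Vegfa (-1.44). Irradiation against passage 2 gave 9 higher and 2 lower, led by Rspo3 (1.64), Vegfa (2.04) and Wnt2 (-3.33), beside 27.5% of all genes called in either direction.

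Other mesenchymal transcription factors, 42 listed and 36 tested, split both ways. With passage 5 rose and 6 fell in Atm+/+ cells, and 6 rose and 5 fell in Atm-/- cells. Heyl, a Notch target of mural cells, fell by -8.53 and -7.16, and Snai2, a driver of mesenchymal state, rose by 1.78 and 1.54. Between genotypes at passage 8, 3 were higher and 5 lower in Atm-/- cells, led by Prrx1 (-1.26), Meis1 (-0.80), Tbx18 (-1.09) and Foxl1 (2.04). Irradiation against passage 2 gave 5 higher and 11 lower, led by Heyl (-3.39) and Prrx2 (-1.30), beside 27.5% of all genes called in either direction.

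Of 6 genes reported as targets of Tbx2 and Tbx3, 5 were tested: with passage, 2 rose and 2 fell in each genotype. Cdkn2a, a cell cycle inhibitor locus that Tbx2 and Tbx3 repress, rose with passage by 1.40 in Atm+/+ cells (edgeR adjusted p = 0.0259) and by 3.78 in Atm-/- cells (edgeR adjusted p = 8.9e-05). Its level went from 18.1 ± 10.3 to 47.6 ± 8.83 CPM and from 13.9 ± 4.91 to 190.03 ± 50.6 CPM (SD, n = 3). It was at 10.7 ± 4.90 CPM after irradiation. Cdkn2b, its neighbour, rose by 0.70 and 1.90. Those that fell were the gap junction gene Gja1 (-1.97, edgeR adjusted p = 0.000169) and the cadherin gene Cdh1 (-6.14, adjusted p = 0.00155) in Atm+/+ cells, and Ndrg1 (-0.61, adjusted p = 0.0415) and Cdh1 (-3.52, adjusted p = 0.0489) in Atm-/- cells. Cdh1 had means of at most 1.71 CPM in any group. In the same comparisons Tbx2 and Tbx3 did not pass in the main edgeR fit of 15 libraries, and their values stand above.

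By likeness of log2 CPM over the 15 libraries, among 10310 genes averaging 2 or more in log2 CPM, the closest to Irx1 were Imp4 (Pearson 0.97), Tfec (0.96) and Prx (0.96). Closest to Irx2 were Kcnab1 (0.94), Lrrn4cl (0.93) and Hmga2 (0.93), and to Tcf21 Ptpru (0.95), Il6 (0.94) and Per3 (0.92). Foxf1 was closest to Tsnax (0.99), Erlin1 (0.98) and Morc2a (0.98), and Tbx5 to Peli2, Ralgapa2 and Rap2a (all 0.99). Irx3 was closest to Ttc5, Rgcc and Gnpat (0.98 each), Tbx4 to Gypc, Spin1 and Evl (0.96, 0.96 and 0.95), Tbx2 to Usp48, Slc25a29 and Rdm1 (0.94 each), and Tbx3 to Bag5, Fads2 and Qtrt2 (0.92, 0.87 and 0.87). The libraries share groups and depth, and without the 2 libraries with the fewest genes detected the values for Irx3 fell to 0.90, 0.84 and 0.84. By rank (Spearman) the values for Tcf21 were 0.66, 0.57 and 0.49 over the 15 libraries. All these correlations are descriptions, highest of many.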

How the data were processed

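The authors deposited whole-number counts per gene and TPM for the 15 libraries. Per the labels, total RNA went into a TrueSeq RNA preparation, and featureCounts, SAMtools 1.3.1 and the mm10 build are named per the submitters' processing notes. Aligner, annotation and strand setting were not given in the sources used here. A second TPM table, a subset of the same values, was not used. Gene IDs were matched to GENCODE vM21 (GRCm38), which named 48058 of 48440 genes. Replicates follow the numbers in the titles. That number may name the strain, since the design lists 3 strains per genotype sampled at both passages, but the labels do not say so. Xist was high in replicate 3 of both Atm-/- groups and in no other library. The main tests took all libraries as unpaired, and p-values measure the spread between these libraries.

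Counts passed filterByExpr by group, TMM normalisation and a single robust quasi-likelihood fit of 15 libraries in edgeR 4.0.16 (R 4.3.3), with a mean per group, Benjamini-Hochberg adjustment over 18167 genes and a threshold of 0.05. SE is the absolute log2 fold change over the square root of F, 95% intervals use normal quantiles of it, and floors of 3 counts cover counting error only. Deposited TPM served for levels between genes and, as log2(TPM + 1) or log2(TPM + 0.1), for limma 3.58.1 at 0.5 TPM or more in 3 libraries. Alternatives were DESeq2 1.42.0, its size factors in edgeR, no filter, a strict filter (1 CPM in 3 libraries and a mean count of 50), only the groups compared, a replicate block, each library left out, and 13 libraries. Scripts were tested on simulated counts. Promoter windows came from RefSeq (GRCm38.p6), with 4 of 10 members matched and 2 shown.

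The members, the lists and the 13-library fit were chosen with earlier results of these data known. Genes named are the 10 members, up to 4 per list and comparison with the lowest p, close copies, genes overlapping or starting within 20 kb of a member, and the 3 genes most alike each. A few named genes fall outside this rule and were chosen after their values were seen: single markers, Ptch1, Gli1 and Fgf10.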

Additional observations from a re-analysis of the deposited data

How the results depend on the processing

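Counts of members called depended on the setting. Shares of all genes called are given at the end of this paragraph as ranges over the settings. A single count is therefore not set against the share of its own setting and is no result about the members. Between genotypes at passage 8 the count, 1 with 15 libraries, was 3 by DESeq2, 0 without a filter, 3 by limma on log2(TPM + 1), 2 on log2(TPM + 0.1), 6 with 13 libraries and 0 with only the groups compared. With passage in Atm+/+ cells, 2 became 1 under the strict filter, which Irx2 does not pass, 1 by limma on log2(TPM + 1) and 5 with 13 libraries. With only the groups compared Irx1 and Foxf1 were called there and Irx2 was not. With passage in Atm-/- cells, 3 became 6 by DESeq2, 5 by limma on log2(TPM + 1), 8 with 13 libraries, and 2 under the strict filter and with only the groups compared. Irradiation against passage 2 gave 1 by DESeq2. Irradiation against passage 8, at 2, gave 1 under the strict filter, by limma on log2(TPM + 1) and with the replicate block, 4 with 13 libraries and 7 with only the groups compared. Those 7 were Tbx2, Tbx3, Foxf1, Irx1, Irx2 and Irx3, all lower, and Tbx5, higher. The difference of passage effects, at 0, gave 2 by DESeq2 and 1 each under the strict filter, limma on log2(TPM + 1) and 13 libraries. Leaving out each library gave 0 to 2 between genotypes at passage 8, 1 to 4 and 1 to 6 with passage in Atm+/+ and Atm-/- cells, 0 to 1 and 1 to 3 for irradiation against passages 2 and 8, and 0 to 2 for the difference of passage effects. The share of all genes called also moved, over these alternatives from 0.233% to 5.35% and 0.111% to 25% between genotypes at passages 2 and 8, 11.2% to 40.1% and 5.12% to 27.2% with passage in Atm+/+ and Atm-/- cells, 12.7% to 46.3% and 3.32% to 36.4% for irradiation against passages 2 and 8, and 0.673% to 19.9% for the difference of passage effects.

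By correlation the replicate numbers were not shown to pair libraries: over the 6 pairs of groups compared, deviations of same-numbered libraries correlated at -0.20 to 0.22. Xist, at 139.5 and 162.5 CPM in replicate 3 of Atm-/- p2 and p8 and near 0 elsewhere, does link number 3 across the Atm-/- passages. For the other numbers no such mark was read. Of the 4 pairs not compared, Atm+/+ p2 with Atm-/- p8 gave 0.16, 0.34 and 0.34, and the others -0.11 to 0.03. The replicate block used the same term for a number in all groups, so it also tied Atm+/+ to Atm-/- libraries. With the replicate block 1, 2, 4 and 1 members were called between genotypes at passage 8, with passage in Atm+/+ and Atm-/- cells, and for irradiation against passage 8. These counts stand without the share of all genes called in that fit and are no result about the members. In that fit Tbx4 passed with passage in Atm-/- cells (-1.137, edgeR adjusted p = 0.0437) and Irx2 did not pass for irradiation against passage 8 (-3.47, adjusted p = 0.0650), and no other member's call changed.

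Directions that turned were of differences that had not passed. Between genotypes at passage 2, Tbx5 was -0.011 by DESeq2 and with its size factors, -0.002 under the strict filter and -0.023 with 13 libraries, and at passage 8 Tbx3 was 0.004 under the strict filter. With passage in Atm+/+ cells Tbx4 was -0.01 by DESeq2, -0.011 with its size factors and -0.322 with 13 libraries, and in Atm-/- cells Tbx3 was -0.175 and -0.201 by limma (pseudocounts 1 and 0.1) and Foxf1 0.437 with 13 libraries. For irradiation against passage 2, limma gave 0.352 and 0.383 for Tbx5, 0.022 and 0.223 for Irx2 and 0.012 and 0.093 for Irx3, only the groups compared gave 0.007 for Tbx5, and 13 libraries gave -0.168 for Tbx4, -0.42 for Irx1 and 1.851 for Irx2. For the difference of passage effects, Tbx2 was -0.595 and -0.612 by limma and -0.653 with 13 libraries, Irx1 -0.137 by limma with 0.1, and Irx2 -0.846 with 13 libraries. The cause was not tested. Limma on TPM moved the median of all genes, at most to -0.50 (pseudocount 1) and -0.78 (0.1) in the difference of passage effects.

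Leaving out each library, ranges that crossed 0 were, between genotypes, Tbx5 -0.029 to 0.083 and Irx2 -0.215 to 2.471 at passage 2 and Tbx3 -0.21 to 0.123 at passage 8. With passage they were Tbx4 -0.312 to 0.583 in Atm+/+ cells and Foxf1 -0.482 to 0.434 in Atm-/- cells, the last without Atm-/- p8 replicate 3. For irradiation against passage 2 they were Tbx4 -0.155 to 0.737, Tbx5 -0.039 to 0.057, Irx1 -0.398 to 0.838, Irx2 -0.824 to 1.851 and Irx3 -0.626 to 0.155. For the difference of passage effects they were Tbx2 -0.327 to 0.458, Irx1 -0.073 to 1.163 and Irx2 -1.225 to 1.44. Levels near the floor of 3 counts limit Irx2, Irx5 and early Irx1.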
